A study of Rattus norvegicus with 8 samples.

Results

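The MAP kinase phosphatase genes Dusp1 and Dusp6 and the growth arrest and DNA damage genes Gadd45a, Gadd45b and Gadd45g were described in rat liver after 4 weeks of hydrogen water. They were taken as all probe sets whose single gene symbol in the platform annotation is one of these names, which gave 8 of the 31099 probe sets on the array and 5 of its 14217 named genes. Dusp1 has 2 probe sets, Dusp6 has 3, and each Gadd45 gene has 1. The genes were chosen by the difference between hydrogen water and control that earlier results of these arrays had shown, so that their own differences are given here as a description, without a test. The hydrogen water group comprised male Sprague-Dawley rats, an outbred strain, that drank water with 0.7 mM dissolved hydrogen for 4 weeks, and the control group comprised male Sprague-Dawley rats that drank sterilized distilled water for as long. All were 8 weeks old at sampling, ate the same commercial diet and were anaesthetized with diethyl ether before the liver was taken. Each group held 8 animals, and 4 arrays per group were analysed. The labels name neither the animal behind each array nor any pooling, so that errors measure the spread between these arrays, which may be in part technical. No transgene or mutation is involved.

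MAP kinases carry growth factor and stress signals by phosphorylating their targets, and the dual specificity phosphatases switch them off by removing the activating phosphates. Dusp1 encodes the nuclear phosphatase MKP-1, which acts on p38, JNK and ERK and is itself an immediate-early gene that glucocorticoids and stress induce, whereas Dusp6 encodes the cytoplasmic MKP-3, which prefers ERK and is transcribed in response to ERK. The Gadd45 proteins are small acidic partners of PCNA, of the CDK inhibitor p21, of CDK1 and of the kinase MAP3K4 upstream of p38 and JNK. Gadd45a is a classical p53 target, Gadd45b is known to respond to NF-kappaB and TGF-beta, and Gadd45g to respond to cytokines.

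Dusp1 and Gadd45g were the genes of this set that stood lowest with hydrogen water, at 0.25 to 0.29 of the control level, while Gadd45b was 2.17-fold higher. Dusp6 and Gadd45a lay between 0.54 and 0.70 of the control level. Values are log2 signals of quantile-normalized arrays with a pseudocount of 2.05 added, so that differences understate the change of dim probe sets. All 8 probe sets passed the filter on low values, a mean log2 signal of 4.42 or more, which is the median of all probe sets. Of the 8, 7 were lower and 1 was higher with hydrogen water, with a median difference of −0.86, against 7795 lower and 7726 higher and a median of −0.0007 among the 15521 probe sets tested. In the limma fit across all of these, 2 of the 8 probe sets, both of Dusp1, were called at an adjusted p of 0.05. The same fit called 0.818% of all tested probe sets, 0.374% as lower and 0.445% as higher with hydrogen water. Because the genes were picked from this contrast, nothing is read from the share called among them or from how these calls move with the processing. Over all probe sets the fit called 69 higher and 58 lower, against 21 and 484 without normalization between arrays, 55 and 132 with median centring and 102 and 42 with scaling by spike-ins. In liver tissue, fewer cells of a type and less RNA per cell cannot be told apart.

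**Figure D1:**
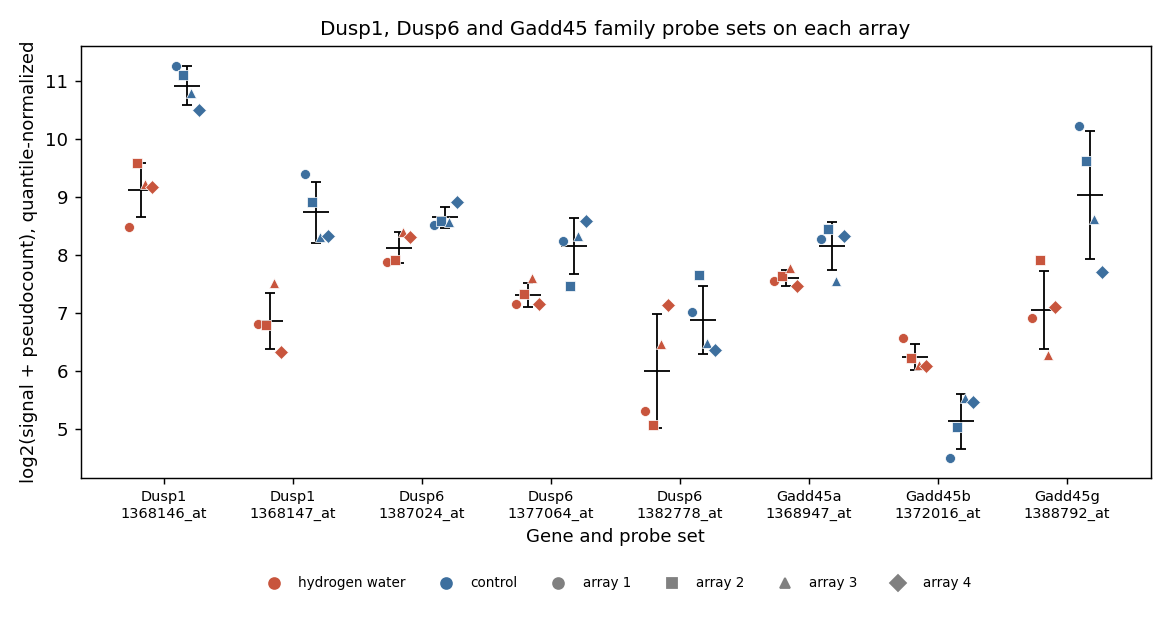
Quantile-normalized log2 signal (y axis, pseudocount added) of each probe set of Dusp1, Dusp6, Gadd45a, Gadd45b and Gadd45g (x axis), with 1 point per array, hydrogen water in red to the left and control in blue to the right, the bars giving mean and SD (n = 4). Both Dusp1 probe sets and the first of Dusp6 lie lower on all hydrogen water arrays than on any control array, Gadd45b lies higher on all of them, and the groups overlap at the other 4 probe sets.

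At the brighter Dusp1 probe set, 1368146_at, the log2 signals were 8.49, 9.59, 9.23 and 9.18 on hydrogen water arrays 1 to 4, against 11.26, 11.10, 10.80 and 10.50 on control arrays 1 to 4. The highest hydrogen water array thus stayed 0.92 below the lowest control array. The means were 9.12 ± 0.46 with hydrogen water and 10.92 ± 0.34 in controls (SD, n = 4 each), a difference of −1.80 ± 0.22 (SE). The dimmer probe set, 1368147_at, read 6.81, 6.80, 7.52 and 6.34 on the hydrogen water arrays, against 9.40, 8.92, 8.31 and 8.33 on the control arrays. Its groups were also apart, by 0.79, and its difference was −1.88 ± 0.28 (SE). Both probe sets of the gene therefore gave about the same difference, although hydrogen water array 1 was the lowest of its group at the brighter one and hydrogen water array 4 at the dimmer one. With 1 array omitted at a time the difference ran from −1.96 to −1.58 at the brighter probe set and from −2.09 to −1.66 at the dimmer one. The promoter window of Dusp1, 250 bases before to 50 bases after the annotated start in RefSeq (GRCr8, chr10:17184603-17184902, plus strand), is shown because this gene had the clearest separation of the groups and because it was the richest of the 5 in the cAMP response element core. Capitals mark the core TGACG on either strand and the E-box CACGTG:
Dusp1: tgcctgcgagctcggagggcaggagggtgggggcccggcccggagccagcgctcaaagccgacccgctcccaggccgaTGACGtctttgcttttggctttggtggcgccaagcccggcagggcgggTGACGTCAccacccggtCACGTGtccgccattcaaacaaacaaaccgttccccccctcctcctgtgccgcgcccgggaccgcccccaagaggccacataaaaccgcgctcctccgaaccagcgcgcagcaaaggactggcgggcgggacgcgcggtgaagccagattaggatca
The window held 3 matches to TGACG, first bases at −172, −124 and −121 from the start, the last 2 on opposite strands and overlapping each other, and 1 match to CACGTG at −107.

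Dusp6 was measured by 3 probe sets, which differed in how clearly the groups separated. The brightest, 1387024_at, read 7.88, 7.92, 8.39 and 8.31 on the hydrogen water arrays, against 8.52, 8.58, 8.57 and 8.91 on the control arrays, and its groups lay apart by 0.13. Its difference of −0.52 ± 0.14 (SE) was the smallest of the set. The second, 1377064_at, read 7.16, 7.34, 7.61 and 7.15 with hydrogen water, against 8.23, 7.48, 8.33 and 8.59 in controls. Here control array 2 fell inside the range of the hydrogen water arrays, and the difference was −0.84 ± 0.21 (SE). Without control array 2 it was −1.07. The third, 1382778_at, read 5.31, 5.08, 6.47 and 7.15 with hydrogen water, against 7.01, 7.66, 6.49 and 6.37 in controls. Its groups overlapped widely, hydrogen water array 4 standing above 3 of the 4 control arrays, and its difference of −0.88 ± 0.43 (SE) had the largest error among the Dusp probe sets. Omitting hydrogen water array 2 gave −0.57, and omitting array 4 of that group gave −1.26. The differences of the 3 probe sets of this gene thus had the same sign, but the size of the third rested on single arrays.

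Among the Gadd45 genes, Gadd45g had the largest difference and the largest spread. Its log2 signals were 6.91, 7.91, 6.28 and 7.10 on the hydrogen water arrays, against 10.22, 9.62, 8.62 and 7.72 on the control arrays. Control array 4 stood below hydrogen water array 2, so that the groups overlapped by 0.20. The means were 7.05 ± 0.67 with hydrogen water and 9.04 ± 1.10 in controls (SD, n = 4 each), a difference of −1.99 ± 0.49 (SE). Without control array 4 the difference was −2.44. Gadd45b ran the other way, with 6.58, 6.23, 6.11 and 6.09 on the hydrogen water arrays, against 4.50, 5.04, 5.54 and 5.46 on the control arrays. No control array reached a hydrogen water array, the gap being 0.55, and the difference was 1.12 ± 0.23 (SE). Control array 1, at 4.50, lay close to the filter on low values, where signals cannot be set apart from background. Gadd45a read 7.55, 7.64, 7.78 and 7.47 with hydrogen water, against 8.28, 8.45, 7.55 and 8.33 in controls. Control array 3 was lower than the other control arrays and lay inside the hydrogen water range, and the difference was −0.54 ± 0.18 (SE). Without control array 3 it was −0.74, and that of Gadd45b was 1.24. The promoter windows of Gadd45g (RefSeq, GRCr8, chr17:13530302-13530601, minus strand) and Gadd45b (RefSeq, GRCr8, chr7:9430669-9430968, minus strand) are shown because these paralogues lay on opposite sides of 0. Capitals again mark TGACG on either strand and CACGTG:
Gadd45g: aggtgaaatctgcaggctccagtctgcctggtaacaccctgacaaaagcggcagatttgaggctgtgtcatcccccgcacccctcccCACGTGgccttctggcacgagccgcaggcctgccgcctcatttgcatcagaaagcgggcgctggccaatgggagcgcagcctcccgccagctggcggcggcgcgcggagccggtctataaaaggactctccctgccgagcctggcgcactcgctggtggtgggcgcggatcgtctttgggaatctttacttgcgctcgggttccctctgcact
Gadd45b: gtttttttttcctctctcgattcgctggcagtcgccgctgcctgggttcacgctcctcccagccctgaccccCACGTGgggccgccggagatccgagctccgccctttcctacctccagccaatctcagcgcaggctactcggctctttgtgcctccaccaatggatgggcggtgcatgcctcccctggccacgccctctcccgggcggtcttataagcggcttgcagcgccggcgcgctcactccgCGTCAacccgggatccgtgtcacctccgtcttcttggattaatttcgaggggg
Both held 1 match to CACGTG, at −163 in Gadd45g and at −178 in Gadd45b. Gadd45b also held 1 match to TGACG, on the opposite strand at −3, and Gadd45g held none, whereas the TATA box TATAAA was found in Gadd45g, at −48, and in no other of the 5 windows.

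Across the 5 windows, which all matched by symbol, CACGTG was found in Dusp1, Gadd45b and Gadd45g, and in 6.42% of the 33469 promoters of the same length in the table. TGACG was found in Dusp1, Gadd45a and Gadd45b, against 21.2% of all promoters, and the SP1 site GGGCGG in the same 3 windows, against 33.1%. The CCAAT box was found in all but Dusp1, against 37.5% of promoters. The glucocorticoid response element core TGTTCT and the STAT site TTCNNNGAA were found in 0 of the 5 windows, against 20.7% and 8.87% of promoters. TATAAA was held by 14.2% of promoters. Both strands were searched, and at GC contents of 57.7% to 68.0% the windows were richer in G and C than the median promoter at 51.7%. These matches are letters only and say nothing about binding.

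Of the 8 probe sets, 4 showed no overlap between the groups, those being both of Dusp1, the brightest of Dusp6 and that of Gadd45b. Over everything tested, 7.48% of probe sets were free of overlap. Which probe sets separated depended on the normalization. In the deposited signals 5 of the 8 had no overlap, against 14.9% of all tested probe sets. There the second Dusp6 probe set, at 106 to 156 with hydrogen water against 162 to 414 in controls, and Gadd45a, at 141 to 188 against 237 to 394, joined those of Dusp1 and the brightest of Dusp6. Gadd45b overlapped there, since hydrogen water array 3 at 54.0 lay below control array 3 at 54.9. The arrays within a group did not line up in the same way for every gene. Control array 1 was the highest control array at both Dusp1 probe sets and at Gadd45g, and the lowest at Gadd45b. Control array 4 was the lowest control array at the brighter Dusp1 probe set and at Gadd45g, but the highest at the 2 brighter Dusp6 probe sets. In the hydrogen water group, array 2 was the highest at the brighter Dusp1 probe set and at Gadd45g, and array 3 at the dimmer Dusp1 probe set, at the 2 brighter Dusp6 probe sets and at Gadd45a.

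Ratios of deposited signals on the same array involve no scaling between arrays, though their level has no meaning of its own because probes differ in brightness. The log2 ratio of Gadd45b to Gadd45g was −0.34, −1.73, −0.17 and −1.05 on the hydrogen water arrays, against −5.79, −4.69, −3.20 and −2.27 on the control arrays. The groups did not overlap, and the mean ratio was 3.17 higher with hydrogen water. Gadd45b to Gadd45a averaged −1.40 ± 0.30 with hydrogen water and −3.10 ± 0.78 in controls (SD, n = 4 each), without overlap. The ratio of Gadd45g to Gadd45a was −0.58 ± 0.75 with hydrogen water and 0.89 ± 1.06 in controls (SD, n = 4 each), and these groups overlapped. That of the brighter Dusp1 to the brightest Dusp6 probe set was 1.01 ± 0.45 with hydrogen water and 2.24 ± 0.49 in controls (SD, n = 4 each), with hydrogen water array 2 inside the control range. In these ratios Gadd45b thus stood higher against Gadd45a and Gadd45g with hydrogen water, which 1 scale factor per array cannot change. Since the genes were picked from this contrast, nothing is read from the separation.

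**Figure D2:**
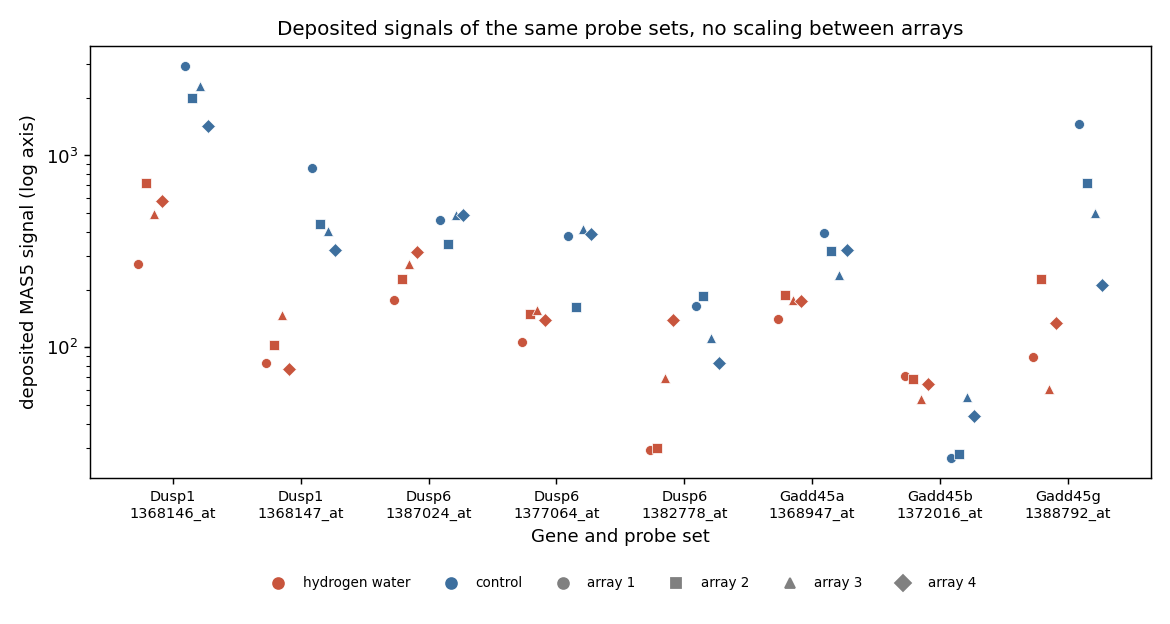
Deposited MAS5 signal (y axis, log scale) of the same 8 probe sets (x axis) before any scaling between arrays, with 1 point per array, hydrogen water in red to the left and control in blue to the right. The brighter Dusp1 probe set runs from 272 to 718 with hydrogen water, against 1432 to 2941 in controls, while Gadd45b runs from 54.0 to 70.9, against 26.5 to 54.9.

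Of 5 array measures, none passed the exact two-sided permutation test at 0.05, in which the smallest possible p is 0.0286. The 2% trimmed mean of the deposited signal was 92.0 ± 10.45 for hydrogen water and 115.9 ± 18.8 for control (SD, n = 4 each), with an exact p = 0.114. The 3′ Gapdh probe set over the 5′ one, a log2 ratio that rises as RNA degrades, averaged 0.38 ± 0.08 for hydrogen water and 0.22 ± 0.10 for control (SD, n = 4 each), with an exact p = 0.0571. The same ratio for beta-actin was 1.64 ± 0.05 for hydrogen water and 1.60 ± 0.03 for control, with an exact p = 0.343. The median signal was 18.7 ± 1.46 for hydrogen water and 23.0 ± 3.46 for control, and the mean log2 spike-in signal was 9.05 ± 0.08 for hydrogen water and 9.44 ± 0.30 for control, each with an exact p = 0.0857. With the trimmed mean as a covariate, the difference was −1.53 and −2.01 at the Dusp1 probe sets, −1.55 at Gadd45g, 0.95 at Gadd45b and −0.84 at Gadd45a, and none of the 8 probe sets was called. With the Gapdh ratio as a covariate these differences were −1.75, −1.59, −2.31, 0.95 and −0.73, and the second Dusp1 probe set was no longer called. The 3 Dusp6 probe sets then stood at −0.39, −0.47 and −0.62. Without normalization the median of all tested probe sets was −0.33, and relative to it Dusp1 stood at −1.77 and −1.89, the brightest Dusp6 probe set at −0.53, Gadd45a at −0.55, Gadd45b at 1.11 and Gadd45g at −2.00. The sign of all 8 probe sets was the same in all 22 alternative fits. These reuse the contrast that chose the genes, so that nothing is read from the kept signs.

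**Figure D3:**
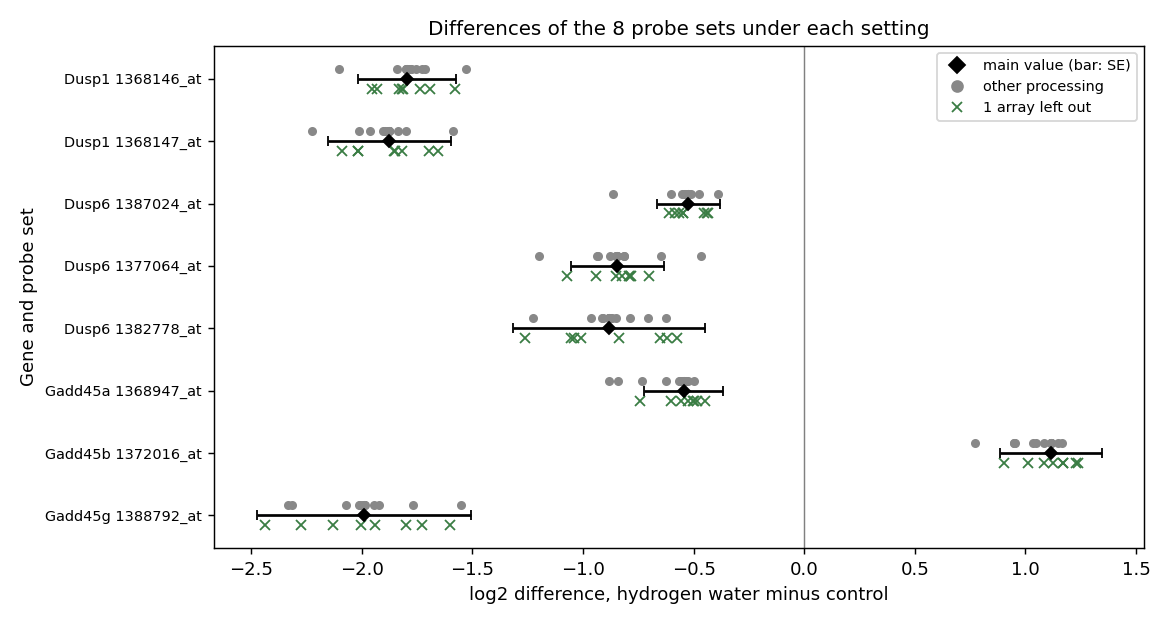
Log2 difference, hydrogen water minus control (x axis), of each probe set (y axis), with the main value and its SE in black, fits with other processing as grey points above it and fits without 1 array as green crosses below it. All points of Gadd45b lie above 0, from 0.77 to 1.24, and all points of the other 7 probe sets lie below 0.

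Cell type markers were examined beside these genes. All 7 measured hepatocyte markers had mean signals above the 75th percentile of all probe sets, and their summed normalized signal ran from 72850 to 74710 with hydrogen water, against 68800 to 74080 in controls. It ran from 3016 to 3577, against 2695 to 3786, for 7 Kupffer cell genes, from 2555 to 2873, against 2252 to 2571, for 5 endothelial genes and from 2500 to 3182, against 2937 to 3197, for 9 stellate cell and fibroblast genes. For 4 cholangiocyte genes it ran from 101.9 to 147.8 with hydrogen water, against 139.2 to 206.9 in controls. The sums were 123.2 to 179.5, against 153.1 to 208.6, for 7 lymphocyte genes, 28.7 to 63.2, against 30.3 to 40.8, for 2 neutrophil genes, and 3569 to 5626, against 2858 to 4309, for 3 erythroid genes. No deposited signal is at 0, and Krt7, Spp1, Des, Acta2, S100a8 and 6 of the 7 lymphocyte genes lay under the filter on low values. Of 33 markers that could be tested, limma called 0. An unadjusted p under 0.05, found at 1943 of all 15521 probe sets tested, was reached by 2 markers. These were Stab2 and Lyve1 of the endothelial list, at 0.42 ± 0.13 and 0.38 ± 0.13 (SE). Of the 5 endothelial genes tested, 2 were higher and 3 lower, with a median of −0.04. The smallest p of the other lists belonged to Hp, C1qb, Pdgfrb, Epcam, Ptprc, S100a9 and Hbb, with differences from −0.50 for Pdgfrb to 0.31 for Hbb. Their part in the differences of Dusp1, Dusp6 and the Gadd45 genes was not tested.

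Around these genes, 121 genes in 13 pathway lists were tested in the same fit, and 4 were called, namely Map2k3, Myc, Fkbp5 and Tgif1. That is 3.31% of them, against 0.857% of all 9106 genes tested, and the median difference was −0.0037, against −0.0019. The lists were drawn up with earlier results for Myc and Fkbp5 known, so that this share is not independent evidence. Over all 15521 probe sets tested, 1943 had an unadjusted p under 0.05, the background for the counts at that level below. Of the other MAP kinase phosphatases, Dusp2, Dusp4, Dusp8, Dusp9 and Dusp10 lay under the filter and only 2 were tested. The ERK phosphatase Dusp5 differed by −0.40 ± 0.15 (SE; adjusted p = 0.286) and Dusp7 by 0.19 ± 0.21 (SE; adjusted p = 0.801), and neither passed. Of 8 further genes of the dual specificity phosphatase family, most of them atypical, 0 passed and 1, Ssh1, had an unadjusted p under 0.05, at 0.34 ± 0.15 (SE). Their median was 0.13.

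Among the kinases that these phosphatases act on or that lie upstream, Map2k3, a kinase that activates p38, fell. It read 7.63, 7.67, 7.62 and 7.60 on the hydrogen water arrays, against 8.29, 8.02, 8.18 and 8.32 on the control arrays, a difference of −0.57 ± 0.10 (SE; adjusted p = 0.0226 in limma). The other 13 of 14 genes of the JNK and p38 cascades did not pass, with a median of −0.04 for the list. Of the 14, 5 had an unadjusted p under 0.05, and differences ran from −1.18 for Mapkapk3 to 0.62 for Map2k6. Map2k3 missed the threshold without hydrogen water array 1, 3 or 4 or control array 1 or 4, where its difference lay between −0.57 and −0.53. It also missed it in 5 of 14 fits with other processing, namely spike-in scaling, no trend in the prior, the replicate block and either covariate, and its difference was −0.92 without normalization. Of 10 genes of the RAS to ERK cascade, limma called 0, and 0 had an unadjusted p under 0.05, with a median of 0.08. Nras had the smallest p, at −0.22 ± 0.13 (SE; adjusted p = 0.56). Feedback inhibitors and targets of ERK, the group that would be read beside Dusp6, had a median of −0.21 over 9 genes. Of these, 7 were lower and 2 higher, 0 passed and 3 had an unadjusted p under 0.05. The lower ones included Ets1 at −0.005 and Spred3 at −0.004, and Spry2, Etv4, Etv5 and Phlda1 lay under the filter. The inhibitor Spry1 differed by −0.82 ± 0.20 (SE; adjusted p = 0.0893).

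The genes that work with the Gadd45 proteins showed no change that passed. Of 4 tested partners, limma called 0, and 0 had an unadjusted p under 0.05, and Pcna, the sliding clamp of DNA replication, differed by 0.14 ± 0.09 (SE; adjusted p = 0.604). Cdk1 and Ccnb1 lay under the filter. Of 16 genes of the p53 list, 0 passed and 4 had an unadjusted p under 0.05, with a median of 0.05. The cyclin Ccng1, a p53 target, had the smallest p and differed by 0.51 ± 0.12 (SE; adjusted p = 0.0751). Of 10 NF-kappaB factors and targets 0 passed and 2 had an unadjusted p under 0.05, with a median of −0.09, and the adhesion molecule Vcam1 differed by 0.67 ± 0.19 (SE; adjusted p = 0.159). Of 8 cell cycle genes above the filter, 0 passed and 0 had an unadjusted p under 0.05, with a median of 0.05, and the cyclin Ccnd1 differed by −0.94 ± 0.53 (SE; adjusted p = 0.529).

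Tgif1, a repressor of TGF-beta signalling, rose, and the other 10 of 11 genes of the TGF-beta and BMP list did not pass. Its difference was 0.87 ± 0.16 (SE; adjusted p = 0.0362 in limma), with 8.03, 7.77, 7.83 and 8.23 on the hydrogen water arrays, against 6.69, 7.22, 7.41 and 7.05 on the control arrays. The list's median was −0.03, and 2 of the 11 genes had an unadjusted p under 0.05. Tgif1 missed the threshold without hydrogen water array 1, 3 or 4 or control array 1, 2 or 4, where its difference lay between 0.74 and 0.91. It also missed it in 6 of 14 fits with other processing, namely no normalization, where its difference was 0.52, median centring, no trend in the prior, the replicate block and either covariate. Of 13 immediate-early genes Myc fell and 12 did not pass, with a median of −0.13, and 5 had an unadjusted p under 0.05. Fos, Fosb, Atf3 and 7 further genes lay under the filter. Of 14 glucocorticoid response genes Fkbp5 rose and 13 did not pass, with a median of 0.09, and 3 had an unadjusted p under 0.05. Myc differed by −2.31 ± 0.32 (SE; adjusted p = 0.0111) and Fkbp5 by 2.73 ± 0.32 (SE; adjusted p = 0.00538), both called in all 8 fits without an array and in 13 of 14 with other processing, the exception being the trimmed mean covariate. Dusp1, known to belong to both responses, stood lower, as Myc did and unlike Fkbp5, but neither list ran 1 way. Of the immediate-early genes 5 were higher and 8 lower, and of the glucocorticoid response genes 9 were higher and 5 lower. Any link to either response was not tested. Of 9 genes of the ATF4 stress pathway, 0 passed and 2 had an unadjusted p under 0.05, with a median of 0.01, and Atf4 itself differed by −0.51 ± 0.10 (SE; adjusted p = 0.0517).

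**Figure D4:**
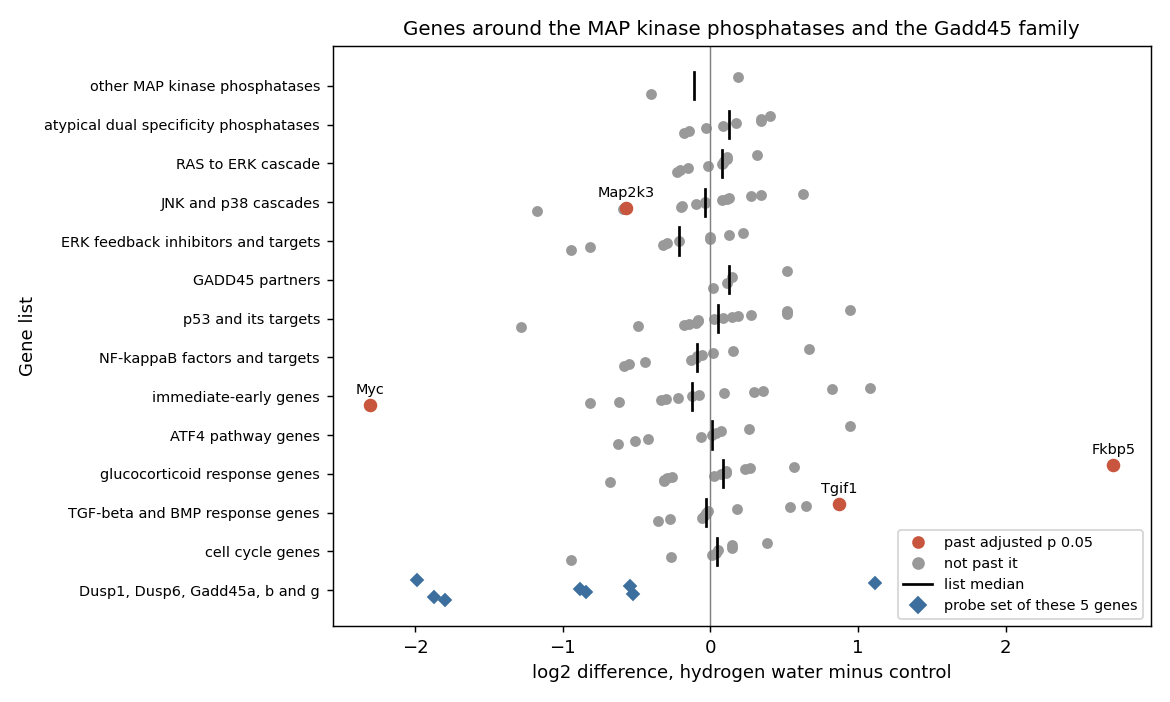
Log2 difference, hydrogen water minus control (x axis), of each tested gene in the 13 lists (rows), with genes past an adjusted p of 0.05 in red and named, the list median as a black bar, and the 8 probe sets of Dusp1, Dusp6, Gadd45a, Gadd45b and Gadd45g as blue diamonds in the lowest row. Only Map2k3, Myc, Fkbp5 and Tgif1 are red, and the list medians lie between −0.21 and 0.13.

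The genes whose signals ran most like those of each gene over the 8 arrays were found by the mean absolute difference of log2 signals, each gene centred on its own mean. For the brighter Dusp1 probe set these were Greb1l at 0.31, the homeobox factor Hhex at 0.32 and Tppp at 0.33. For the brightest Dusp6 probe set they were Zfand1 at 0.08, Brd10 at 0.09 and Rps4y2 at 0.10. The transcription factor Gata4 at 0.10, Sfxn5 at 0.10 and Mkrn1 at 0.12 were nearest to Gadd45a, and Akr1c15 at 0.17, the ceramidase Acer2 at 0.17 and Dcaf13 at 0.175 to Gadd45b. Nearest to Gadd45g was Dusp1 itself at 0.53, followed by the G protein regulator Rgs3 at 0.54 and Stambpl1 at 0.55, a larger distance than for the other 4 genes. The search ran over 12229 to 12231 named probe sets. The arrays share their group, so that a common difference between the groups places genes near each other.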

How the data were processed

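Total RNA from rat liver was labelled with biotin and hybridized to an Affymetrix rat array, per the labels' protocols. The deposited values are linear signal intensities, for which the submitters' processing notes name MAS5, an Affymetrix method that subtracts background and summarises the probes of a probe set. The sources used here give neither its version nor its scaling target, and no detection calls were used. The 8 arrays were quantile-normalized, 10% of the median signal was added, and log2 was taken, which hides any change shared by most transcripts. The 57 control probe sets and the lower 50% of probe sets by mean were left out, which left 15521. Groups of 4 arrays were compared with limma 3.58.1 (lmFit, eBayes with trend) in R 4.3.3, with Benjamini-Hochberg adjustment over all tested probe sets. A gene of a list was represented by its brightest probe set. Symbols came from the platform annotation, of whose 20826 probe sets with a single symbol 20758 matched RefSeq by gene ID. The genes, lists and tests were chosen with earlier results of these data known. Named were all 8 probe sets, each listed gene past the threshold, otherwise that with the smallest p, and the 3 nearest patterns. Other genes were named after their values were seen, namely Dusp7, Lyve1, Egr1, Mapkapk3, Map2k6, Ets1 and Spred3 and those listed as under the filter. Alternatives covered normalization, pseudocount, filter, prior, weights, covariates, a replicate block and each array left out. The fit was tested on simulated data. A planned comparison of protein sequences was not made, since no protein table was used here.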

Additional observations from a re-analysis of the deposited data

Results flagged for a closer look

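At the brightest Dusp6 probe set, control array 4 had a log2 signal of 8.91, far above the other control arrays at 8.52 to 8.58, with a gap of 0.844 of the group's range. Without that array the difference was −0.43, against −0.52 with it. This was the only flag among 16 groups of 4 arrays checked over the 8 probe sets, and chance flags about 1 in 20 such groups.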

How the results depend on the processing

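Under the 22 alternative fits the differences of all 8 probe sets kept their sign. Without normalization the brightest Dusp6 probe set stood at −0.86 and Gadd45a at −0.88, which follows the shift of all probe sets, and 6 of the 8 probe sets and 10 pathway genes were called. With the trimmed mean signal as a covariate 0 of the 8 and 0 pathway genes were called, and with the Gapdh ratio 1 of the 8. Pathway genes called numbered 7 with median centring and 2 without a trend in the prior. Leaving out an array gave 2 to 4 of the 8 probe sets and 2 to 8 pathway genes. Without control array 2 the dimmer Dusp1 probe set was lost (−1.82) and the second of Dusp6 added. Gadd45a and Gadd45b were added without control array 3, and Gadd45g without control array 4. These calls and the kept signs rest on the contrast that chose the genes and support nothing. Over all probe sets 127 were called, against 505 without normalization, 64 without a trend, 12 with the trimmed mean, 239 with the Gapdh ratio and 55 to 197 without an array. With the replicate block 178 were called, and 3 of the 8 probe sets, Gadd45g being added. Of the pathway genes the block called Fkbp5, Myc, Atf4 and Egr1, so that Map2k3 and Tgif1 were lost. The numbers were not taken as pairing the arrays, since deviations of same-numbered arrays correlated at −0.10, 0.04, 0.19 and −0.003, and 1 of 4 hydrogen water arrays correlated best with its own number. Of the 15 nearest patterns, 13 were shared without normalization and 0 after group means were removed, since the second measure leaves out the difference between groups. The cause of the other changes was not tested. Without detection calls, signals near the filter, such as Gadd45b on control array 1, cannot be set apart from background.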
